A study of Mus musculus with 6 samples.

Results

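The enzymes described here are 7 mouse genes of glycosphingolipid synthesis: Ugcg, B4galt5, B4galt6, St3gal5, B4galnt1 and St8sia1, which make gangliosides in successive and branching steps, and B3galt5, a galactosyltransferase of other glycan chains. They were chosen by name, with their values in this comparison known, and are 7 of 34981 genes in the deposited table. RNA was sequenced from spheroids of B16F10, a melanoma line derived from C57BL/6 mice, each culture started from 500 cells in 50 µl of Matrigel, a basement membrane extract, at 7 mg/ml. The 3 BMP2 cultures received the ligand at 100 ng/ml for 10 days and the 3 PBS cultures received the carrier alone. The experiment was done 3 times, so each of batches 1, 2 and 3 holds 1 BMP2 and 1 PBS library. All 6 cultures come from a single cell line and carry no other treatment per the labels, so the spread between libraries is that between repeats of the experiment and not between animals.

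Gangliosides are sialic acid-bearing lipids of the outer cell membrane, built on ceramide by the stepwise addition of sugars in the Golgi. Glucose is added first, then galactose to give lactosylceramide, and a first sialic acid turns this into GM3, the branch point from which GM2 and GD3 are made. Melanocytic cells are known for GM3 and GD3, and in B16 cells GM3 is known as the main ganglioside. B3galt5 acts outside this route: it adds a beta-1,3-linked galactose to N-acetylglucosamine, giving type 1 chains, and can extend globoside.

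Libraries held 27821900 to 36856500 estimated counts. The known BMP targets Id2 and Smad9 had higher levels with BMP2 in every batch, as had Id1, Id3 and Smad6. For Id2 and Smad9 the edgeR adjusted p was 0.21 and 0.0802 with treatment alone in the model. With batch as a block it was 0.0152 and 0.0241. For Id1, Id3 and Smad6 it was 0.33, 0.297 and 0.181, and 0.131, 0.117 and 0.0665 with the block. With treatment alone these targets thus did not pass the threshold of 0.05. Id2 was at 186, 438 and 717 CPM (counts scaled to library size) in BMP2 libraries 1, 2 and 3 against 32.7, 79.9 and 65.7 CPM in the PBS libraries, and Smad9 at 7.63, 17.0 and 26.4 CPM against 1.04, 1.43 and 1.11 CPM. The first principal component (50% of the variance) set PBS 1 apart, at 79.7 against -55.5 to 16.8 in the others. Within either group batch 1 was highest and batch 3 lowest on that component, at 16.8, -24.1 and -55.5 in BMP2 libraries 1, 2 and 3 and at 79.7, 4.85 and -21.8 in PBS libraries 1, 2 and 3. All 8 melanocytic markers passed the filter on low counts, with a summed level of 29100 to 39700 CPM in BMP2 libraries and 23800 to 26800 CPM in PBS libraries. Markers of other cells were low. Summed levels were 3.12 to 5.31 CPM in BMP2 libraries and 4.38 to 8.49 CPM in PBS libraries for 5 fibroblast genes, 2.92 to 5.92 and 4.24 to 5.89 CPM for 5 leukocyte genes, 0.724 to 2.02 and 1.02 to 1.76 CPM for 4 endothelial genes, and 0.445 to 0.759 and 0.163 to 0.759 CPM for 3 epithelial genes. Col1a2, Dcn, Lum, Ptprc, Adgre1, Cd3e, Cdh5, Kdr, Tek, Krt14 and Epcam had at most 3 counts in any library.

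All 8 melanocytic markers were higher with BMP2 in every batch. Of all tested genes, 22.8% were higher in all 3 batches and 21.1% lower. For Mitf and Dct every BMP2 library lay above every PBS library, as for 6.42% of tested genes. None of the 8 was called by edgeR with or without batch as a block. Among markers of other cells, Lyz2, Cd68 and Pdgfra differed with the same sign in every batch. Lyz2, a lysozyme gene of myeloid cells, was at 2.81, 2.28 and 0.849 CPM in BMP2 libraries, against 0.878, 0.703 and 0.299 CPM in PBS libraries. Cd68, a macrophage marker, was at 3.05, 2.34 and 2.02 CPM in BMP2 libraries, against 4.91, 3.54 and 4.46 CPM in PBS libraries. Pdgfra, a growth factor receptor gene of fibroblasts, was at 4.38, 1.66 and 2.05 CPM in BMP2 libraries, against 7.32, 3.09 and 4.16 CPM in PBS libraries. Lyz2 was thus higher with BMP2 in every batch and Cd68 and Pdgfra lower, and among these only Cd68 had groups that did not overlap. Their log2 fold changes of 1.65, -0.80 and -0.85 did not pass (edgeR adjusted p 0.839 to 0.883, and 0.131 to 0.235 with batch as a block). The part of these marker differences in the values of the 7 enzymes was not tested.

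B3galt5 (ENSMUSG00000074892; GRCm38 chromosome 16, 96235801 to 96319859, plus strand) differed most among the 7 genes. It was at 1.13, 5.63 and 10.4 CPM in BMP2 libraries 1, 2 and 3, against 0.0325, 0.337 and 0.838 CPM in PBS libraries 1, 2 and 3. Every BMP2 library lay above every PBS library, and in both groups batch 1 was lowest and batch 3 highest. These are small numbers of reads, 33, 193 and 417 estimated counts in BMP2 libraries against 1, 12 and 28 in PBS libraries, so the gene passed the filter mainly through the BMP2 libraries. The mean was 5.73 ± 4.64 CPM with BMP2 and 0.403 ± 0.407 CPM with PBS (SD, n = 3 each), a ratio of 14.2.

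The ratio of BMP2 to PBS for B3galt5 was 34.7 in batch 1, where the PBS library had 1 count and the exact 95% interval for counting error ran from 5.81 to 1410. It was 16.7 in batch 2 (9.35 to 32.9) and 12.4 in batch 3 (8.47 to 18.9). On the log2 scale of CPM with a prior of 2 counts, which damps ratios at low counts, the differences were 3.70, 3.84 and 3.54. They were alike between batches on that scale only, while the undamped ratio fell from 34.7 in batch 1 to 12.4 in batch 3. The log2 fold change fitted over the 6 libraries was 3.81 (SE 1.04), and 3.96 (SE 0.37) with batch in the model as a block. Because B3galt5 was picked for this difference, it is described and not tested. The fitted value was 3.05 without BMP2 replicate 3, 3.28 without PBS 1, 4.89 without PBS 3 and 4.30 without BMP2 replicate 1. B3galt5 was lowest in the library at the top of the first principal component, PBS 1, and highest in the one at its bottom, BMP2 3, and the part of that component in the difference was not tested. Reads of bulk cultures do not tell apart more cells with the transcript from more transcript per cell.

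**Figure D1:**
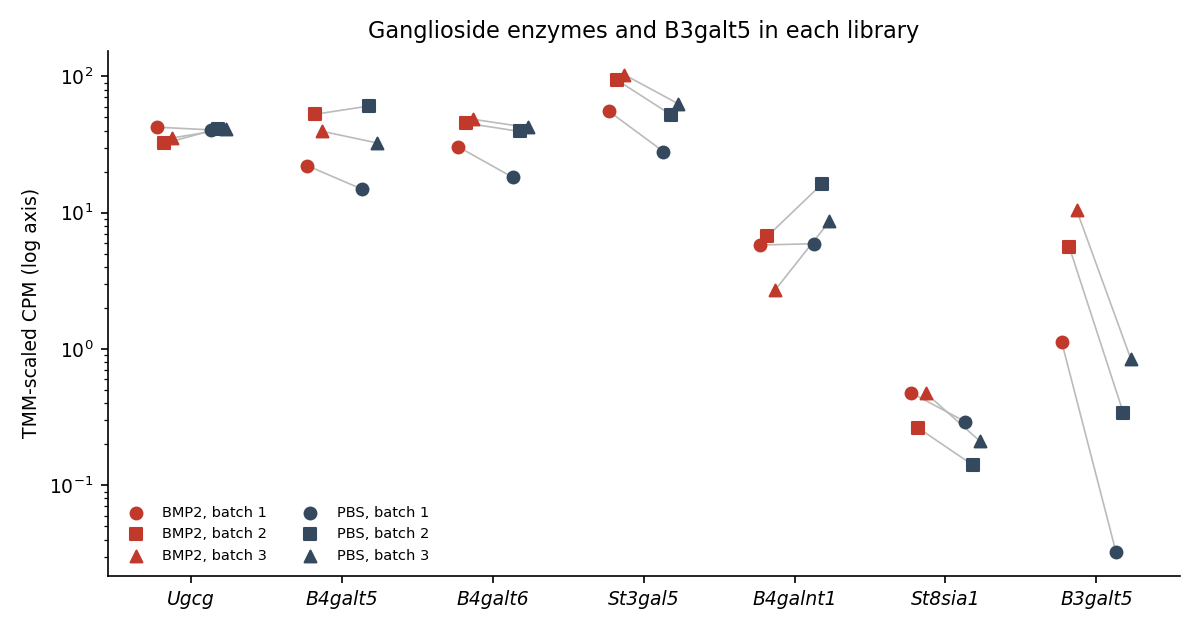
TMM-scaled CPM (log axis) of the 7 genes in each library, BMP2 in red and PBS in dark blue, with 1 marker shape per batch and grey lines joining the libraries of a batch. B3galt5 is the only gene of the 7 whose BMP2 libraries (1.13 to 10.4 CPM) all lie above its PBS libraries (0.0325 to 0.838 CPM).

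RefSeq places B3galt5 transcript starts at 3 positions on GRCm38, and the deposited table gives 1 value per gene, so the start in use was not analysed here. The 250 bases before a start are shown for the first and second B3galt5 starts and for St3gal5, the most abundant of the 7 genes per length, to let motifs of factors active in BMP-treated melanocytic cells be read in place. Capitals mark GGCGCC, a GC-rich element bound by BMP-activated SMADs, CAGAC or its complement GTCTG, the SMAD box, and CACGTG, an E-box of MITF and related factors; both strands were searched and no matches overlapped in these windows.
B3galt5 start 1, chr16:96235551-96235800, plus strand: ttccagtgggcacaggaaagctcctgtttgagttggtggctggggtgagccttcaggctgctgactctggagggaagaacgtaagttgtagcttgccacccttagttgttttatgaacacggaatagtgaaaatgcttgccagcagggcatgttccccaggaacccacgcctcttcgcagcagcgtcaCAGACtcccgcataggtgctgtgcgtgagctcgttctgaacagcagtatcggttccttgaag
B3galt5 start 2, chr16:96273263-96273512, plus strand: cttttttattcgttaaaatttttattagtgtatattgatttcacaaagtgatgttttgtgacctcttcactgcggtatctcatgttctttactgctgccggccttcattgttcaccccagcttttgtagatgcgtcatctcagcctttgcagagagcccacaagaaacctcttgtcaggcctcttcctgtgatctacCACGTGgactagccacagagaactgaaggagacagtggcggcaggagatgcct
St3gal5, chr6:72097358-72097607, plus strand: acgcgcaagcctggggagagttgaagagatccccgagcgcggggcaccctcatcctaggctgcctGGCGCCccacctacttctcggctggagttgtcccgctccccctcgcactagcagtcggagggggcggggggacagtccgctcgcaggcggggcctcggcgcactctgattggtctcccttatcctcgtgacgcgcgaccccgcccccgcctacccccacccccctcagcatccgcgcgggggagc

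The first B3galt5 window holds 1 CAGAC, 62 to 58 bases before the start, and the second holds 1 CACGTG, 53 to 48 bases before it. The third window (chr16:96280782-96281031, 67.2% G or C) held none of the 3 motifs. The St3gal5 window holds 1 GGCGCC, 185 to 180 bases before the start. Over all 32851 RefSeq windows of this length, 42.2% held CAGAC or GTCTG, 9.59% held GGCGCC and 6.02% held CACGTG. Windows were searched for 5 of the 7 genes. B4galnt1 had no window in the source used, and B4galt6 was left out of the search. The window of B4galt5 holds 3 SMAD boxes, and those of St8sia1 and Ugcg hold 1 each. A match is a string of letters and not a binding site.

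Of the 3 nearest protein-coding genes on either side of B3galt5, 2 passed the filter, Sh3bgr and Wrb, and 0 of these were called in either fit. Sh3bgr, 6866 bases before it, was at 3.12, 2.77 and 2.60 CPM in BMP2 libraries and 2.96, 3.77 and 3.50 CPM in PBS libraries, a log2 fold change of -0.27 (SE 0.31; edgeR adjusted p 0.894). Wrb, 77949 bases before it, was at 12.3, 12.1 and 12.7 CPM in BMP2 libraries and 11.4, 11.4 and 13.3 CPM in PBS libraries, a log2 fold change of 0.04 (SE 0.21; edgeR adjusted p 0.979). Lca5l did not pass the filter on low counts, with means of 0.0848 CPM with BMP2 and 0.111 CPM with PBS, and Igsf5, Itgb2l and Pcp4 on the other side had 0 counts in all 6 libraries.

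The ganglioside route begins with Ugcg, which encodes glucosylceramide synthase (ENSMUSG00000028381; chromosome 4, 59189257 to 59222833). Ugcg was at 42.4, 32.2 and 35.3 CPM in BMP2 libraries 1, 2 and 3, against 40.5, 41.3 and 40.9 CPM in the PBS libraries. The PBS libraries of the 3 batches lay within 1 CPM of each other, and the BMP2 libraries lay on both sides of them. The log2 fold change was -0.16 (SE 0.18), and -0.17 (SE 0.15) with the block, with batch differences of 0.07, -0.36 and -0.21.

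Lactosylceramide is made by the products of B4galt5 (ENSMUSG00000017929; chromosome 2, 167298444 to 167349183) and B4galt6 (ENSMUSG00000056124; chromosome 18, 20684599 to 20746404). B4galt5 was at 22.1, 52.7 and 39.5 CPM in BMP2 libraries, against 14.9, 60.6 and 32.5 CPM in PBS libraries. B4galt6 was at 30.4, 45.4 and 48.4 CPM in BMP2 libraries, against 18.2, 39.4 and 42.2 CPM in PBS libraries. For both genes the spread between batches exceeded the difference between BMP2 and PBS, and the groups overlapped. B4galt5 was higher with BMP2 in batches 1 and 3 and lower in batch 2 (log2 differences 0.56, -0.20 and 0.28), while B4galt6 was higher in all 3 (0.73, 0.20 and 0.20). Their log2 fold changes were 0.08 (SE 0.50) for B4galt5 and 0.31 (SE 0.34) for B4galt6. With batch as a block they were 0.21 (SE 0.18) and 0.38 (SE 0.16). PBS 1 had the lowest level of both genes. With PBS 1 alone left out, the values without the block were -0.29 for B4galt5 and 0.02 for B4galt6. That fit keeps BMP2 1, the other library of batch 1. With the block and all of batch 1 left out they were 0.03 and 0.19. In the fit without the block, B4galt5 was also -0.23 without BMP2 replicate 2 and 0.68 without PBS 2.

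St3gal5 encodes GM3 synthase, which adds the first sialic acid (ENSMUSG00000056091; chromosome 6, 72097592 to 72154571). It was at 55.3, 94.3 and 103 CPM in BMP2 libraries 1, 2 and 3, against 28.1, 52.3 and 62.8 CPM in PBS libraries 1, 2 and 3. Each BMP2 library was above the PBS library of its batch, with log2 differences of 0.97, 0.85 and 0.71, but the groups overlapped because BMP2 1 lay below PBS 3. The mean was 84.2 ± 25.5 CPM with BMP2 and 47.8 ± 17.8 CPM with PBS (SD, n = 3 each). The log2 fold change was 0.82 (SE 0.34), and 0.84 (SE 0.12) with the block. It was 0.54 without PBS 1, 1.07 without PBS 3, and 0.77 with the block and without batch 1. In both groups St3gal5 was lowest in batch 1 and highest in batch 3, the order that B3galt5 and B4galt6 also followed.

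The next 2 enzymes act on GM3. B4galnt1, which encodes GM2 synthase (ENSMUSG00000006731; chromosome 10, 127165225 to 127172330), was at 5.79, 6.72 and 2.70 CPM in BMP2 libraries, against 5.92, 16.2 and 8.62 CPM in PBS libraries. It was near level in batch 1 (ratio 0.977, counting interval 0.788 to 1.21) and lower with BMP2 in batch 2 (0.415, 0.354 to 0.484) and batch 3 (0.313, 0.248 to 0.391). The log2 fold change was -1.02 (SE 0.47). It was -0.52 without PBS 2, -0.72 without BMP2 replicate 3 and -1.30 without PBS 1. With the block and without batch 1 the value for B4galnt1 was -1.47. Of the 31-base words in its transcripts, 19.9% occur in other genes, chiefly Slc26a10, so reads may have been divided between the 2 genes. Slc26a10 itself was at 1.13, 0.204 and 0.624 CPM in BMP2 libraries and 0.683, 0.478 and 1.02 CPM in PBS libraries, below B4galnt1 in each library.

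St8sia1 encodes GD3 synthase (ENSMUSG00000030283; chromosome 6, 142821545 to 142964452) and was at the edge of detection. It had 14, 9 and 19 estimated counts in BMP2 libraries, against 9, 5 and 7 in PBS libraries, or 0.479, 0.263 and 0.474 CPM against 0.293, 0.141 and 0.210 CPM. The groups overlapped. The counting interval of the ratio reached from below to above 1 in every batch (0.660 to 4.29, 0.563 to 7.10 and 0.911 to 6.37), so no batch alone showed a difference beyond counting error. The sign was the same in every batch (ratios 1.64, 1.87 and 2.26), and the summed counts of 42 with BMP2 and 21 with PBS gave a ratio of 1.93 (counting interval 1.12 to 3.42), which does not include the spread between cultures. It was the only one of the 7 genes that did not pass the filter, and its log2 fold change without that filter was 0.93 (SE 0.71).

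**Figure D2:**
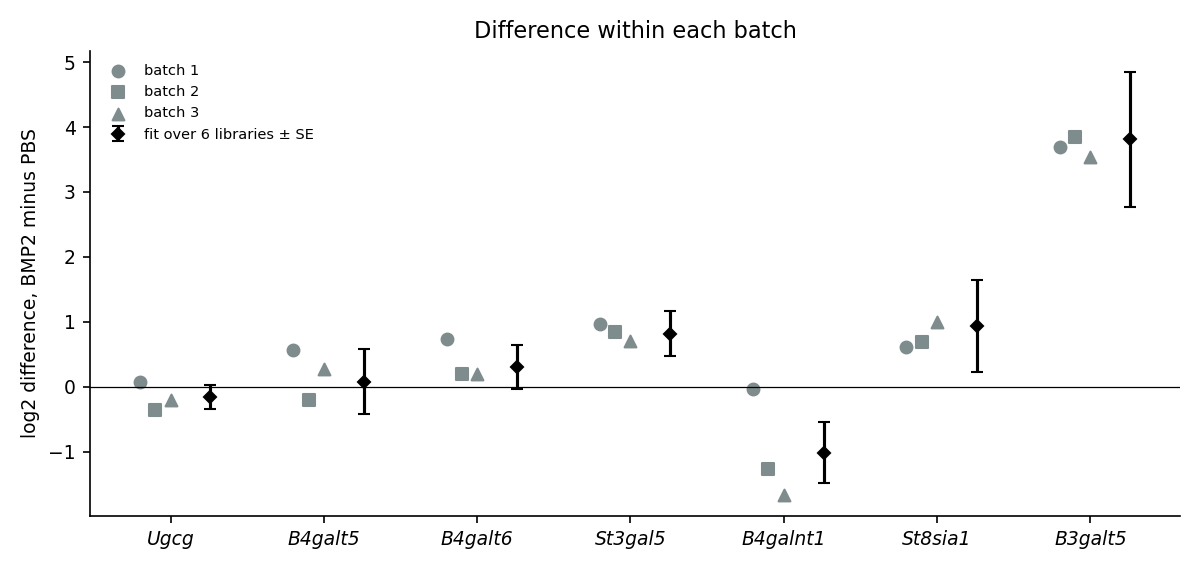
Log2 difference of BMP2 minus PBS within each batch (grey, 1 shape per batch, CPM with a prior of 2 counts), and the fitted log2 fold change with its SE over the 6 libraries (black). On this scale B3galt5 (3.54 to 3.84) and St3gal5 (0.71 to 0.97) vary little between batches, while B4galnt1 ranges from -1.66 to -0.03. The prior damps B3galt5 in batch 1, and its undamped ratios were 34.7, 16.7 and 12.4 in batches 1, 2 and 3.

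Of the 6 genes that passed the filter, B3galt5, St3gal5 and B4galt6 were higher in all 3 batches, against 22.8% of tested genes. B4galnt1 was lower in all 3, against 21.1%, but was near level in batch 1 at a log2 difference of -0.03. Only B3galt5 had every BMP2 library above every PBS library, as had 6.42% of tested genes. Since the choice of these genes drew on this comparison, nothing is read from the counts.

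Levels were compared between genes as TPM, a measure scaled for gene length and library size, from estimated counts divided by the summed exon length. The deposited values were still on the scale of reads and not already divided by length: among genes with 1 annotated transcript, the median of values under 1.5 lay between 0.977 and 1.03 over the 6 libraries for genes under 500 bases and between 0.985 and 1.01 for genes above 4000 bases. St3gal5 was the most abundant of the 7 in each of the 6 libraries, at 58.9, 99.1 and 120 TPM in BMP2 libraries and 23.6, 53.1 and 68.5 TPM in PBS libraries. Next came B4galt5 at 25.3 ± 9.94 TPM with BMP2 and 22.2 ± 14.9 TPM with PBS, Ugcg at 20.1 ± 2.88 and 20.2 ± 2.78 TPM, and B4galt6 at 20.5 ± 5.43 and 15.2 ± 7.32 TPM (SD, n = 3 each). With the longest annotated transcript as the length, Ugcg came second in both groups, at 20.5 TPM with BMP2 and 20.5 TPM with PBS, ahead of B4galt5 at 20.3 and 17.8 TPM. These 3 changed places between libraries and their ranges overlapped in both groups. The ranges of St3gal5 and of these 3 were apart in BMP2 libraries, while in PBS libraries the lowest St3gal5 value lay below the highest B4galt5 value of 37.3 TPM. B4galnt1 followed at 4.13 ± 1.56 TPM with BMP2 and 7.78 ± 4.38 TPM with PBS, and its range overlapped that of B3galt5 with BMP2 and those of B4galt5 and B4galt6 with PBS. B3galt5 was at 0.512, 2.52 and 5.14 TPM in BMP2 libraries and 0.0116, 0.145 and 0.389 TPM in PBS libraries. In BMP2 library 3 B3galt5 thus lay above B4galnt1 (2.37 TPM), and in PBS library 1 below St8sia1 (0.0689 TPM). St8sia1 was lowest in the 5 other libraries, at 0.125 ± 0.0416 TPM with BMP2 and 0.0576 ± 0.0155 TPM with PBS.

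**Figure D3:**
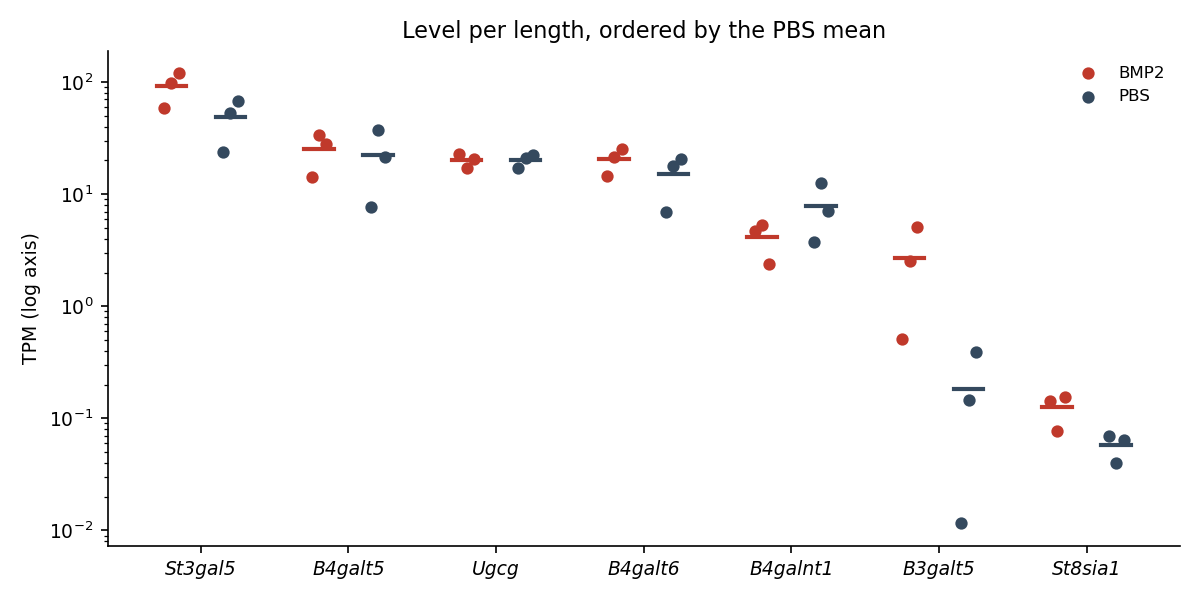
TPM (log axis) of the 7 genes per library, BMP2 in red and PBS in dark blue, with a bar at each group mean and genes ordered by the PBS mean. St3gal5 is highest in both groups (means 92.6 and 48.4 TPM), and the B3galt5 mean is 2.72 TPM with BMP2 and 0.182 TPM with PBS.

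The ratio of GM3 synthase to GM2 synthase transcripts, St3gal5 over B4galnt1 in TPM, was 12.6, 18.5 and 50.5 in BMP2 libraries 1, 2 and 3, against 6.27, 4.26 and 9.62 in PBS libraries. The groups did not overlap, and BMP2 3 was far above the others. St3gal5 over B4galt6 was 4.03, 4.61 and 4.73 in BMP2 libraries, against 3.42, 2.94 and 3.31 in PBS libraries, again without overlap. St3gal5 over Ugcg was 2.59, 5.82 and 5.81 in BMP2 libraries, against 1.38, 2.52 and 3.06 in PBS libraries, and overlapped because BMP2 1 lay below PBS 3. The isoenzyme ratio B4galt5 over B4galt6 was 0.979, 1.57 and 1.10 in BMP2 libraries and 1.10, 2.07 and 1.04 in PBS libraries, which overlapped. St3gal5 exceeded St8sia1 most, by ratios of 411, 1280 and 776 in BMP2 libraries and 343, 1330 and 1070 in PBS libraries. These ratios hold the same genes as the comparison above and are descriptions.

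The wider pathway was read from 6 lists with 92 genes, of which 91 were in the data used and 71 passed the filter. Of these 71, 0 were called without the block by edgeR or by DESeq2, and 3 (4.23%) had an unadjusted edgeR p under 0.05, against 5.38% of all tested genes. With the block 1 was called by edgeR, Cmas, and 12 (16.9%) had an unadjusted p under 0.05, against 17.0% of all tested genes. Over all tested genes, 0.00773% were called higher and 0.0387% lower without the block, and 0.371% higher and 0.364% lower with it. The median log2 fold change over the 71 genes was 0.07, against 0.01 over all 12929 tested genes. Every BMP2 library lay above every PBS library for 6 of them and below for 3, against 6.42% and 5.72% of all tested genes.

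Cmas, which activates sialic acid to CMP-sialic acid, the donor used by St3gal5 and St8sia1, was called higher only with the block in the model. It was at 73.8, 121 and 136 CPM in BMP2 libraries 1, 2 and 3, against 39.3, 64.9 and 82.5 CPM in PBS libraries 1, 2 and 3. Each BMP2 library was above the PBS library of its batch, while BMP2 1 lay below PBS 3. The log2 fold change was 0.84 with the block (edgeR adjusted p 0.0466) and 0.82 (SE 0.33; edgeR adjusted p 0.883) without it, with batch differences of 0.91, 0.89 and 0.72. With the block the edgeR adjusted p was 0.0136 without batch 1, 0.245 without batch 2 and 0.0502 without batch 3, at log2 fold changes of 0.80 to 0.90.

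The list of sugar nucleotide supply, which holds Cmas, had 12 tested genes and a median of 0.01. Nanp, a phosphatase one step earlier in sialic acid synthesis, was at 7.12, 4.29 and 3.84 CPM in BMP2 libraries, against 2.83, 2.28 and 2.72 CPM in PBS libraries, and every BMP2 library lay above every PBS library. Its log2 fold change of 0.96 (SE 0.35) did not pass (edgeR adjusted p 0.839). Slc35a1, the Golgi transporter of CMP-sialic acid, had a log2 fold change of 0.43 (SE 0.21; edgeR adjusted p 0.883) and likewise no overlap, at 28.8 to 34.0 CPM in BMP2 libraries and 18.4 to 25.3 CPM in PBS libraries. Gne, which starts sialic acid synthesis, and Nans, which condenses it, had values of 0.14 and -0.18. Ugp2, which makes UDP-glucose, was at 976 to 1910 CPM in BMP2 libraries and 2070 to 2490 CPM in PBS libraries (log2 fold change -0.61, SE 0.27, edgeR adjusted p 0.883).

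Genes for later ganglioside steps (6 of 9 tested, median 0.22) had 0 calls in either fit. Their median was 0.01 without PBS 1, 0.34 without PBS 3, and 0.12 with the block and without batch 1. St3gal1, which sialylates galactose on gangliosides and on O-glycans, was at 53.5, 103 and 96.7 CPM in BMP2 libraries, against 41.7, 54.3 and 50.0 CPM in PBS libraries, and BMP2 1 lay below PBS 2. Its log2 fold change was 0.79 (SE 0.27, edgeR adjusted p 0.804), and 0.75 with the block (edgeR adjusted p 0.111). With the block and without batch 1 it was 0.93 (edgeR adjusted p 0.00754). B3galt4, which makes GM1, was at 1.58 ± 0.0662 CPM with BMP2 and 1.25 ± 0.477 CPM with PBS (SD, n = 3 each; log2 fold change 0.33, SE 0.44, edgeR adjusted p 0.903). The log2 fold changes of St6galnac4 and St6galnac6, alpha-2,6-sialyltransferases, were 0.30 and -0.15.

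The list of lacto, neolacto and globo chains (12 of 19 tested, median 0.07) had 0 calls in either fit. It holds enzymes that make acceptors for B3galt5, among other enzymes of these chains. B3gnt5 and B3galnt1 did not pass the filter, so the median does not cover them. B3gnt5, which begins the lacto-series on lactosylceramide, had 0 counts in all 6 libraries, where 3 counts correspond to 0.0749 to 0.103 CPM. B3galnt1, which makes globoside, had 0 counts in 5 libraries and 1 count in PBS 1. B3gnt2 and B3gnt3, which add N-acetylglucosamine to glycoprotein chains, were present. B3gnt2 was at 10.6 to 12.8 CPM in BMP2 libraries and 9.04 to 15.7 CPM in PBS libraries, and B3gnt3 at 9.76 to 29.5 CPM in BMP2 libraries and 14.0 to 22.8 CPM in PBS libraries. Their log2 fold changes were 0.05 (SE 0.27) and 0.20 (SE 0.40). Among relatives of B3galt5 with the same linkage, B3galt1 was at 7.59 to 9.38 CPM in BMP2 libraries and 5.17 to 7.25 CPM in PBS libraries (log2 fold change 0.45, SE 0.26, edgeR adjusted p 0.883) and B3galt2 did not pass the filter. The sialyltransferase genes St3gal4 and St3gal6 had log2 fold changes of 0.28 and -0.23, and B4galt3 had -0.21.

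**Figure D4:**
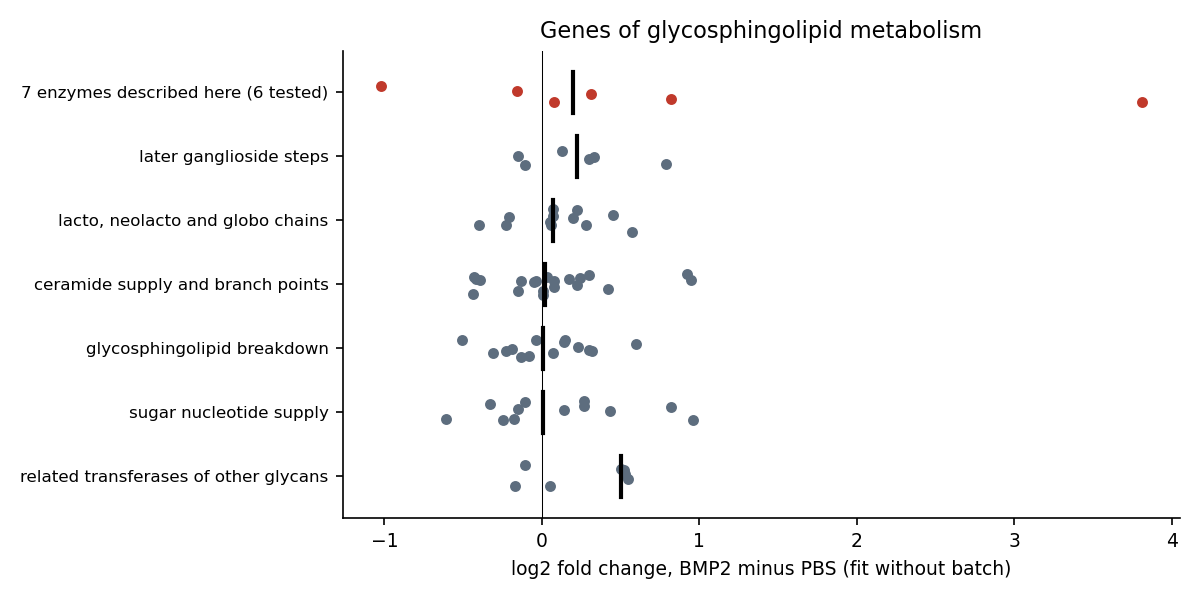
Log2 fold change of BMP2 minus PBS (fit without batch) for each tested gene of the 7 enzymes described here (red) and of the 6 pathway lists (grey), with a black bar at the median and random vertical scatter for legibility. B3galt5 at 3.81 lies apart from all other genes shown, which range from -1.02 to 0.96.

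Ceramide supply and branch points (20 of 24 tested, median 0.02) had 0 calls in either fit. The values with the smallest p were 0.42 for the ceramide synthase gene Cers6, -0.42 for Col4a3bp, which encodes the ceramide carrier towards sphingomyelin, 0.95 for the sphingomyelin synthase gene Sgms2 and 0.24 for Ormdl1, a regulator of serine palmitoyltransferase (log2 fold changes, edgeR adjusted p 0.883 each). Col4a3bp was -0.44 with the block (edgeR adjusted p 0.451), and -0.88 with the block and without batch 1 (edgeR adjusted p 0.0206). Glycosphingolipid breakdown (14 of 16 tested, median 0.01) also had 0 calls in either fit, with 0.60 for Galc, a lysosomal galactosidase, -0.51 for Psap, the precursor of the saposin activators, and -0.31 for Arsa, the sulfatide sulfatase (edgeR adjusted p 0.883 each). Galc was 0.62 with the block (edgeR adjusted p 0.107), and 0.53 with the block and without batch 1 (edgeR adjusted p 0.0474). Related transferases of other glycans (7 of 12 tested) had a median of 0.50, with batch medians of 1.08, 0.07 and 0.26 and 0 calls in either fit. Without PBS 1 the median was 0.07, below the 0.08 of lacto, neolacto and globo chains and the 0.09 of ceramide supply. For the related transferases the median was 0.89 without PBS 3, and 0.16 with the block and without batch 1. The genes next named are of this list. Its leading genes were C1galt1 and its chaperone C1galt1c1, which build core 1 O-glycans, at 0.52 and 0.50, the alpha-2,6-sialyltransferase gene St6gal1 at 0.55 and the proteoglycan linker gene B3galt6 at 0.53 (edgeR adjusted p 0.883 to 0.898). That list was highest in batch 1, the batch of the library PBS 1.

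The genes whose pattern over the 6 libraries was most like that of B3galt5, by Pearson correlation of log2(CPM + 1) among 12087 other protein-coding genes tested, were Nr2c2ap (0.994), Pradc1 (0.992), Ackr3 (0.990), Slc22a15 (0.988) and 1700007K13Rik (0.985). Ackr3, an atypical chemokine receptor gene, was at 0.377, 0.905 and 1.47 CPM in BMP2 libraries, against 0.0325, 0.225 and 0.389 CPM in PBS libraries. Nr2c2ap was at 16.4, 25.9 and 38.1 CPM in BMP2 libraries, against 11.4, 13.3 and 15.9 CPM in PBS libraries. Both were lowest in PBS 1 and highest in BMP2 3, as B3galt5 was. The 6 points share batches and treatment, 68 genes had a correlation above 0.95, and with a pseudocount of 0.1 only Ackr3 and 1700007K13Rik stayed among the 5 most alike.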

How the data were processed

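One table was used, in which the authors deposited estimated counts for each gene in 6 libraries. Per the submitters' processing notes, kallisto 0.44.0 and GRCm38.p6 were used. The annotation, the strand setting and the summing of transcripts to genes were not given in the sources used here. Only 0.0247% of non-zero values were whole (tolerance 1e-06), so 1 unit was close to, but not exactly, 1 read. Intervals cover counting error only. Control columns were taken as the samples titled untreated. GENCODE M21 matched 34679 of the 34981 genes, and 302 were not matched.

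Values were rounded. Genes were filtered with filterByExpr, scaled by TMM and tested with edgeR 4.0.16 (quasi-likelihood, R 4.3.3), with treatment alone in the model and Benjamini-Hochberg adjustment over 12929 genes at 0.05. The labels say that same-numbered libraries share a batch, and within batches 1, 2 and 3 deviations from group means had correlations of 0.51, 0.25 and 0.52, so the fit with batch as a block is given where it changes a call. Residual degrees of freedom are 2 with the block and 4 without. SEs were worked back from the F statistic. Alternatives used DESeq2 1.42.0 and limma 3.58.1. Leaving out batches was added after seeing the data. The scripts were tested on simulated counts with the same dispersion setting for every gene and no batch effect. That checks the code and not the power of the fits in these data.

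The 7 genes and the lists were chosen with earlier results of these data known. Genes named were the 7, up to 4 per list by smallest unadjusted p and any called in either fit. The 3 protein-coding neighbours on either side of B3galt5, the 5 most alike and 5 BMP targets were also named. Levels of Id1, Id3 and Smad6 are not given. Other list members given with values (Gne, Nans, B3gnt2, B3gnt3, B3gnt5, B3galnt1, B3galt2) were chosen after their values were seen. So were the markers Mitf, Dct, Lyz2, Cd68 and Pdgfra. Promoter sequences are from RefSeq on GRCm38.p6. A4galt was not analysed here. One gene that the naming rule selects is not reported here.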

Additional observations from a re-analysis of the deposited data

How the results depend on the processing

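The log2 fold change of B3galt5 was above 0 under all 15 alternatives, as was that of St3gal5, while B4galnt1 and Ugcg stayed below 0. That of B4galt5 changed sign in 2 of 15, as given above. B3galt5 was at 3.65 under quantile normalization, at 4.28 with the block and without batch 3, and between 3.05 and 4.89 with 1 library left out. The count of pathway genes called stayed 0 in either direction without the block. With batch as a replicate block it was 1 higher, and with the block and without batch 1 it was 3 higher (Cmas, St3gal1 and Galc) and 1 lower (Col4a3bp). With the block it was 0 in either direction without batch 2 and without batch 3. In each blocked fit without a batch, fewer residual degrees of freedom remained than with all batches. For these fits the share of all tested genes called was not computed. Their counts of pathway genes thus have no background to be read against. Over all genes, edgeR called 1 higher and 5 lower without the block, and 48 higher and 47 lower with it. DESeq2's Wald test called 62 higher and 68 lower, no filter gave 19 and 16, and a mean count of at least 100 gave 0 higher and 4 lower. With 1 library left out the counts were 0 to 5 higher and 2 to 5 lower. The cause of these differences was not tested. Medians of the pathway lists lay between -0.16 and 0.89 over the alternatives. Depth limits St8sia1 and the PBS values of B3galt5.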
